A study of Mus musculus with 6 samples.

Results

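The genes described here are 10 surface, secreted and signalling genes whose transcripts are known to be high in mouse regulatory T cells (Treg): Gpr83, Nrp1, Izumo1r, Klrg1, Il1rl1, Ecm1, Swap70, Rgs16, Sytl2 and Plagl1. They were taken from a fixed list of names, and every probe set whose platform annotation named 1 of them and no other gene was used. That gave 14 of the 22626 probe sets tested, for 9 of the 10 genes, out of 12393 named genes in all. Il1rl1 had no probe set annotated to it alone and has no value below. Nrp1 and Rgs16 had 3 probe sets each, Plagl1 had 2, and the other genes had 1 each. Probe sets of 1 gene are repeat reads of that gene in the same samples and are not replicates. Without probe sequences it is not known whether they read the same transcripts.

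Total RNA came from magnetically separated CD4+CD25+ T cells of HDAC6 knockout mice (3 samples) and of wild-type C57BL6 mice (3 samples), and was amplified, labelled with biotin and read on 1-colour arrays. HDAC6 is a mainly cytoplasmic deacetylase that acts on tubulin and on the chaperone HSP90, and the study's title sets HDAC6 and HSP90 beside the functions of Foxp3+ Treg. The samples of a genotype were described as independent. The labels do not state the strain or deleted stretch of the knockout mice, age, sex, or whether animals were pooled. The p-values therefore judge differences against the spread between these samples, which may not be the spread between animals. Levels are deposited log2 values after RMA normalization, differences are knockout minus wild type on that log2 scale, and SE is the standard error of the difference from limma, a linear model fitted over all probe sets that shares information on their spread. Adjusted p-values are Benjamini-Hochberg values over all 22626 probe sets, with a threshold of 0.05.

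Treg restrain other immune cells and are set apart from conventional CD4+ T cells by the transcription factor Foxp3 and by a wider signature of transcripts, part of which Foxp3 does not control directly. The members act at different points of the cell: receptors that read signals or contacts at the surface (Gpr83, Nrp1, Izumo1r, Klrg1, Il1rl1), a secreted matrix glycoprotein (Ecm1), intracellular brakes and adaptors of receptor signalling (Rgs16, Swap70), a vesicle tether (Sytl2) and an imprinted transcription factor (Plagl1).

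The 6 arrays had medians of 6.22 to 6.27 and lower quartiles of 4.14 to 4.25 over probe sets. The targeted gene, Hdac6, averaged 7.68 ± 0.16 in knockout and 8.39 ± 0.16 in wild type (SD, n = 3 each), lower in all 3 knockout arrays, with limma's adjusted p = 0.0875. The files do not place its probe set inside or outside the deletion. The cells' defining markers were present in both genotypes: Foxp3 averaged 10.32 ± 0.12 in knockout and 10.26 ± 0.06 in wild type, and Ctla4 averaged 10.63 ± 0.07 in knockout and 10.46 ± 0.18 in wild type (SD, n = 3 each). The brighter probe set of Il2ra, the chain by which the cells were selected, averaged 9.44 ± 0.14 in knockout and 9.43 ± 0.18 in wild type (SD, n = 3 each). Of 12 Treg identity markers, 0 passed the threshold in the fit of 1 probe set a gene (0.169% of all genes passed), 2 did not overlap between genotypes (18.6% of all genes) and all lay above the arrays' lower quartiles. Of these markers, 9 were higher and 3 lower in knockout (median 0.13). The smallest p among them belonged to Itgae, an integrin chain that binds E-cadherin (0.31, SE 0.08), and Tnfrsf4, the costimulatory receptor OX40 (0.27, SE 0.09). Of 8 plasma cell markers 7 were higher, with summed levels (of values taken out of the log) of 51096 to 57799 in knockout and 31135 to 38791 in wild type, and Igha rose at all 3 of its probe sets, by 1.81, 2.28 and 2.79 (limma's adjusted p at most 0.00799). Knockout values of Igha reached 14.51, the top of the table's scale, where RMA values compress differences. The part of plasma cells in the members' values was not tested.

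Across the 14 probe sets, Nrp1 and Rgs16 read higher and Gpr83 read lower in the HDAC6 knockout CD4+CD25+ preparations, by 0.34 to 0.59 in log2. Izumo1r was higher by 0.20, and Ecm1, Sytl2, Swap70, Klrg1 and Plagl1 differed by at most 0.28 in either direction. By limma, 0 of the 14 passed the adjusted threshold, which 0.194% of all probe sets passed, and 1 of the 14, for Nrp1, lay under an adjusted p of 0.1 (0.535% of all). With limma's trend and robust settings 1 probe set of Nrp1 (adjusted p = 0.0134) and that of Gpr83 (adjusted p = 0.0385) passed, as did 0.65% of all probe sets. At an unadjusted p under 0.05 there were 8 of 14, 7 higher and 1 lower, where 10.6% of all probe sets reached that level (5.26% higher and 5.36% lower). The 7 higher were probe sets of Nrp1, Rgs16 and Izumo1r only, and the 1 lower was that of Gpr83. Genotypes did not overlap for 8 of the 14, 6 higher and 2 lower in knockout, while this held for 17.2% of all probe sets (7.68% higher and 9.48% lower). The median difference of the 14 was 0.15, beside 0.13 over the 12 Treg identity markers (brightest probe sets) and 0.00 over all 22626. Nrp1 and Rgs16, with 3 probe sets each, weigh most in these counts. By the brightest probe set of each gene, 5 of the 9 genes were higher and 4 lower. Over all genes 6286 were higher and 6107 lower. Genotypes did not overlap for 5 of these 9 genes, where 18.6% of all genes did not overlap. Since the genes were chosen with results of these arrays known, these counts are descriptive.

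**Figure D1:**
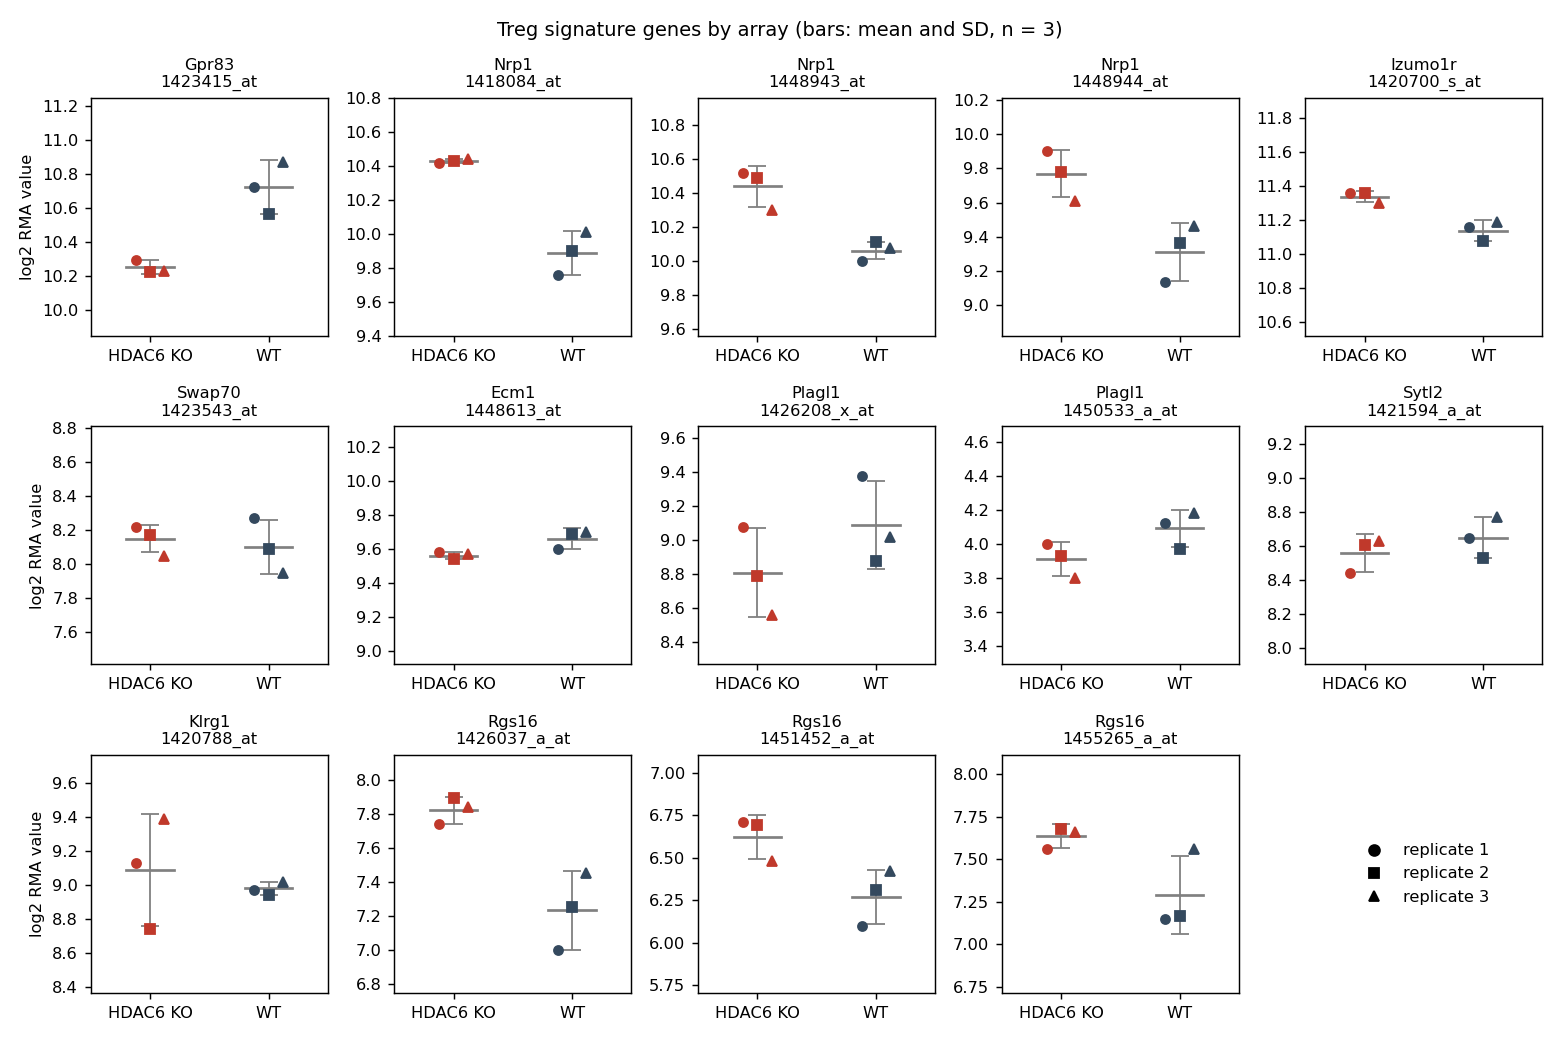
Log2 RMA value of each of the 14 probe sets in each array, HDAC6 knockout (red, left) and wild type (dark blue, right), with marker shape for the replicate and grey bars for mean and SD (n = 3). Vertical axes differ in level and share 1 span, so distances can be compared between panels. The knockout points of Nrp1 lie above and those of Gpr83 below every wild-type point, while the knockout points of Klrg1 are spread around the wild-type ones.

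Nrp1 encodes neuropilin-1, a coreceptor for semaphorins and for vascular endothelial growth factor, which in mice is carried by most thymus-derived Treg. For all 3 of its probe sets the lowest knockout array lay above the highest wild-type array. Probe set 1418084_at read 10.42, 10.43 and 10.44 in knockout and 9.76, 9.90 and 10.01 in wild type, a difference of 0.54 (SE 0.08, 95% interval 0.35 to 0.73), or 1.45-fold, with limma's adjusted p = 0.0787. It ranked 81 of 22626 by p, ahead of the other member probe sets. The knockout arrays of this probe set lay close together, with an SD of 0.01, and the nearest wild-type array, replicate 3, lay 0.40 below the lowest of them. The brightest, 1448943_at, averaged 10.44 ± 0.12 in knockout and 10.06 ± 0.05 in wild type (SD, n = 3 each), with a gap of 0.20 between the groups. The difference was 0.38 (SE 0.08), with limma's adjusted p = 0.165. The third, 1448944_at, read 9.90, 9.78 and 9.61 in knockout and 9.13, 9.36 and 9.46 in wild type. It differed by 0.45 (SE 0.11), with limma's adjusted p = 0.223. The 95% intervals of the 3 differences overlapped widely (0.18 to 0.57 for 1448943_at and 0.19 to 0.72 for 1448944_at).

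Other cells that carry Nrp1 were followed by their markers in the same arrays. Of 13 measured myeloid and dendritic markers 9 were lower and 4 higher (median -0.30), with summed levels of 4310 to 6005 in knockout and 5279 to 7383 in wild type. Of 10 endothelial and stromal markers 9 were higher and 1 lower, but by little (median 0.04, highest 0.21). Genotypes did not overlap for 0 of these 10, where 18.6% of all genes did not overlap. Their sums were 458 to 502 in knockout and 474 to 545 in wild type, and 5 of the 10 lay below the arrays' lower quartiles. RMA values have no zero and came without detection calls, and in bulk RNA fewer cells of a type and less transcript per cell cannot be told apart. The part of these cells in the Nrp1 values was not tested.

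Gpr83, a G protein-coupled receptor of the brain and of mouse Treg whose transcript glucocorticoids induce in T cells, ran the other way. Its probe set 1423415_at read 10.29, 10.22 and 10.23 in knockout and 10.72, 10.56 and 10.87 in wild type. All 3 knockout arrays were below the lowest wild-type array, replicate 2, by at least 0.27. The difference was -0.47 (SE 0.09, 95% interval -0.69 to -0.25), or 1.39-fold lower in knockout, with limma's adjusted p = 0.137 and rank 219 by p.

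Nrp1 and Gpr83 had the smallest p among the members that were higher and lower in knockout, and their upstream sequences are shown for that reason. Each is the 250 bases before the RefSeq transcript start, 5′ to 3′ on the gene's strand (+ for both), from RefSeq's table of build GRCm38.p6, at chr8:128358823-128359072 for Nrp1 and chr9:14859960-14860209 for Gpr83. Capitals mark CG dinucleotides.
Nrp1: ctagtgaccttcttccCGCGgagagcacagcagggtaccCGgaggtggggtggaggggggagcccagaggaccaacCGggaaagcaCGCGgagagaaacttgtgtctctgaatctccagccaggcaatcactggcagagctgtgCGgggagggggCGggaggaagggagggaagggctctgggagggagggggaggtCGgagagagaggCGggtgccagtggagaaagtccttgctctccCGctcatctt
Gpr83: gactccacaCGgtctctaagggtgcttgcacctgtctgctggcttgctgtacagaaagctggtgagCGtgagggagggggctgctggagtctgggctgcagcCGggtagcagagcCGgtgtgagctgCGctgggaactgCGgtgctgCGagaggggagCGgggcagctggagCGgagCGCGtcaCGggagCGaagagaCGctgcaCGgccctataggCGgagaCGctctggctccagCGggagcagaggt
Both windows were rich in G and C, at 64.4% for Nrp1 and 66.8% for Gpr83, and held 11 and 18 CG dinucleotides, beside medians of 52.4% and 6 over the 32851 windows of the table. Of the 10 members, 8 had a window (Il1rl1 had 2), and 6 motifs were searched on both strands, none of which contains another. The heat shock element GAANNTTC (6.69% of all windows) and the STAT motif TTCNNNGAA (7.02%) matched 0 of the members. The forkhead motif TGTTTAC (3.17% of windows) matched Swap70 and Il1rl1, and the AP-1 motif TGANTCA (6.75%) matched Ecm1. The E-box CACGTG (6.02%) matched Plagl1, and the NFAT motif TGGAAA (18.6%) matched Izumo1r and Swap70. The windows of Nrp1, Gpr83 and Rgs16, the members with differences over 0.3, held no match to these 6 motifs, which says only that these letters are not in these windows.

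Izumo1r, also called folate receptor 4 or Juno, is a surface protein related to folate receptors that serves as the sperm receptor of the egg and is high on mouse Treg. Probe set 1420700_s_at, of a class whose probes can match several transcripts, read 11.36, 11.36 and 11.30 in knockout and 11.16, 11.08 and 11.19 in wild type. The groups did not overlap, with a gap of 0.10. The difference was 0.20 (SE 0.07, 95% interval 0.04 to 0.35), or 1.14-fold, with limma's adjusted p = 0.365. In the RefSeq gene table Izumo1r and Gpr83 are adjacent coding genes on chromosome 9, and their differences had opposite signs.

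Klrg1 encodes an inhibitory lectin-like receptor for cadherins that marks late effector T cells, natural killer cells and a subset of differentiated Treg. Probe set 1420788_at read 9.13, 8.74 and 9.39 in knockout and 8.97, 8.94 and 9.02 in wild type. The 3 wild-type arrays lay close together between the lowest and the next knockout array. Its SD was 0.33 in knockout and 0.04 in wild type (n = 3 each), and the difference of 0.11 (SE 0.16, 95% interval -0.26 to 0.48, adjusted p = 0.85 by limma) turned to -0.04 without knockout replicate 3. Leaving out knockout replicate 2 gave 0.29. Of 13 natural killer, innate lymphoid and mast cell markers 8 were lower and 5 higher (median -0.10), with summed levels of 1169 to 1839 in knockout and 1247 to 2166 in wild type. Il17rb differed by -1.24 (SE 0.27) and Gzma by -1.03 (SE 0.25), the 2 of the list that did not overlap between genotypes (18.6% of all genes). Of 6 CD8 T cell markers 3 were higher and 3 lower, with sums of 2780 to 3416 in knockout and 2727 to 3581 in wild type. The part of these cells in the Klrg1 values was not tested.

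Rgs16 is a GTPase-accelerating protein that shortens signals from G protein-coupled receptors, chemokine receptors among them. Probe set 1426037_a_at read 7.74, 7.89 and 7.84 in knockout and 7.0, 7.25 and 7.45 in wild type. The groups did not overlap, and wild type replicate 3 came nearest, 0.29 below the lowest knockout array. The difference of 0.59 (SE 0.12, 95% interval 0.31 to 0.88), or 1.51-fold, was the highest among the 14 probe sets, with limma's adjusted p = 0.147. Probe set 1451452_a_at read 6.71, 6.69 and 6.48 in knockout and 6.10, 6.31 and 6.42 in wild type, and the groups lay 0.06 apart. The difference was 0.35 (SE 0.11), with limma's adjusted p = 0.319. Probe set 1455265_a_at read 7.56, 7.68 and 7.66 in knockout and 7.15, 7.17 and 7.56 in wild type, and here wild type replicate 3 reached the lowest knockout array. It differed by 0.34 (SE 0.12), with limma's adjusted p = 0.374. Without wild type replicate 3 the differences of 1426037_a_at and 1455265_a_at were 0.70 and 0.48.

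Swap70, a RAC-binding signalling protein best known in B cells and mast cells, read 8.22, 8.17 and 8.05 in knockout and 8.27, 8.09 and 7.95 in wild type (1423543_at). The groups overlapped throughout. The difference was 0.04 (SE 0.10, 95% interval -0.19 to 0.28, adjusted p = 0.918 by limma) and became -0.04 without wild type replicate 3. Of 10 measured B cell markers, 6 were lower and 4 higher (median -0.34), with summed levels of 1270 to 1837 in knockout and 1713 to 2360 in wild type. Ms4a1 differed by -1.13 (SE 0.29) and Spib by -0.94 (SE 0.24), the 2 of the list that did not overlap between genotypes (18.6% of all genes). The part of B cells in the Swap70 values was not tested.

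Ecm1, a secreted glycoprotein that in mouse type 2 helper cells favours exit from lymph nodes, read 9.58, 9.54 and 9.57 in knockout and 9.60, 9.69 and 9.70 in wild type (1448613_at). The groups did not overlap, but the gap was 0.01. The difference was -0.10 (SE 0.07, 95% interval -0.25 to 0.06), with limma's adjusted p = 0.65.

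Sytl2 encodes a synaptotagmin-like effector of RAB27 that tethers secretory vesicles to the plasma membrane. It read 8.44, 8.61 and 8.63 in knockout and 8.65, 8.53 and 8.77 in wild type (1421594_a_at). The groups overlapped, and the difference was -0.09 (SE 0.09, 95% interval -0.31 to 0.13), with limma's adjusted p = 0.786. Plagl1 is a maternally imprinted zinc finger transcription factor that slows cell division. Its probe set 1426208_x_at, of a class whose probes can match other transcripts, read 9.08, 8.79 and 8.56 in knockout and 9.38, 8.88 and 9.02 in wild type, and differed by -0.28 (SE 0.17), with limma's adjusted p = 0.619. Probe set 1450533_a_at averaged 3.91 ± 0.10 in knockout and 4.09 ± 0.11 in wild type (SD, n = 3 each), below the arrays' lower quartiles, with a difference of -0.18 (SE 0.09). Both Plagl1 probe sets had the same sign and overlapped between genotypes.

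**Figure D2:**
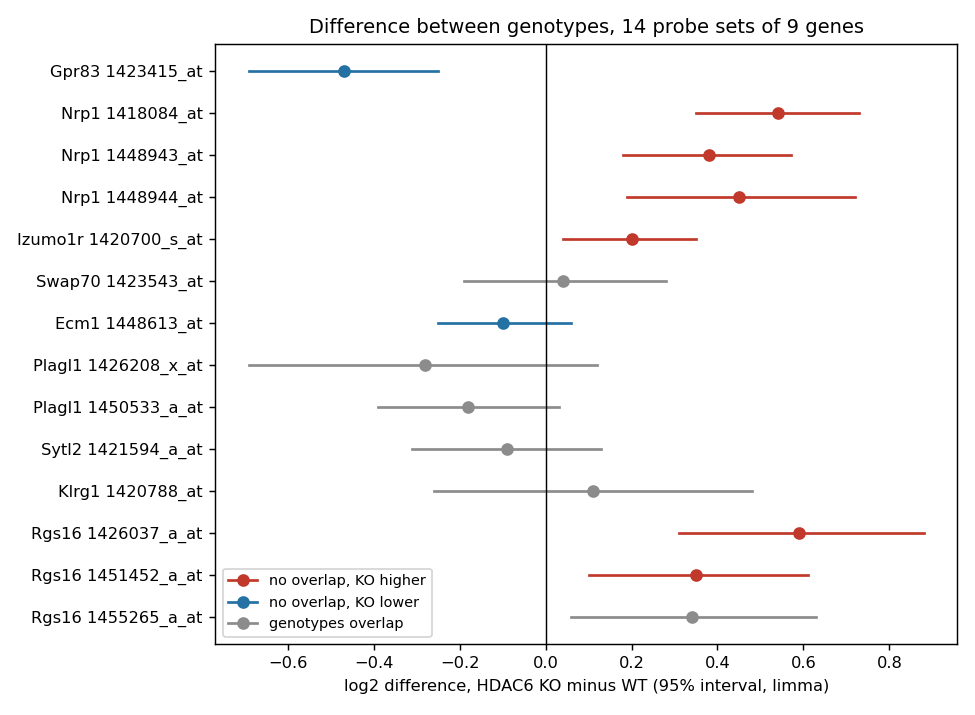
Log2 difference, HDAC6 knockout minus wild type, of each probe set (points) with its unadjusted 95% interval from limma (lines). Red marks probe sets whose knockout arrays were all higher, blue those all lower and grey those that overlapped. The intervals of Nrp1, Rgs16, Izumo1r and Gpr83 lie to 1 side of 0, and those of Swap70, Ecm1, Plagl1, Sytl2 and Klrg1 include it.

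Replicate spread was set side by side for the genotypes, without a test. The SD was smaller in knockout than in wild type for 11 of the 14, beside 49.3% of all probe sets. Some of the 11 were near ties, such as Sytl2 (0.11 in knockout, 0.12 in wild type) and Plagl1 1450533_a_at (0.10 and 0.11). Each SD rests on 3 arrays, and several of the 14 read the same gene, so this count is descriptive. The brightest probe set of Nrp1, 1448943_at, went the other way, with 0.12 in knockout and 0.05 in wild type. Gpr83 had an SD of 0.04 in knockout and 0.16 in wild type, and Nrp1 (1418084_at) had 0.01 in knockout and 0.13 in wild type (n = 3 each). Klrg1 was the widest exception. Of the 6 probe sets that were higher in knockout without overlap, wild type replicate 3 was the highest wild-type array in 5, where this held for 40.3% of the 1738 such probe sets on the arrays. These 6 all belong to Nrp1, Rgs16 and Izumo1r, so they are repeat reads of few genes. At the brightest Nrp1 probe set, 1448943_at, wild type replicate 2 was the highest, at 10.11.

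**Figure D3:**
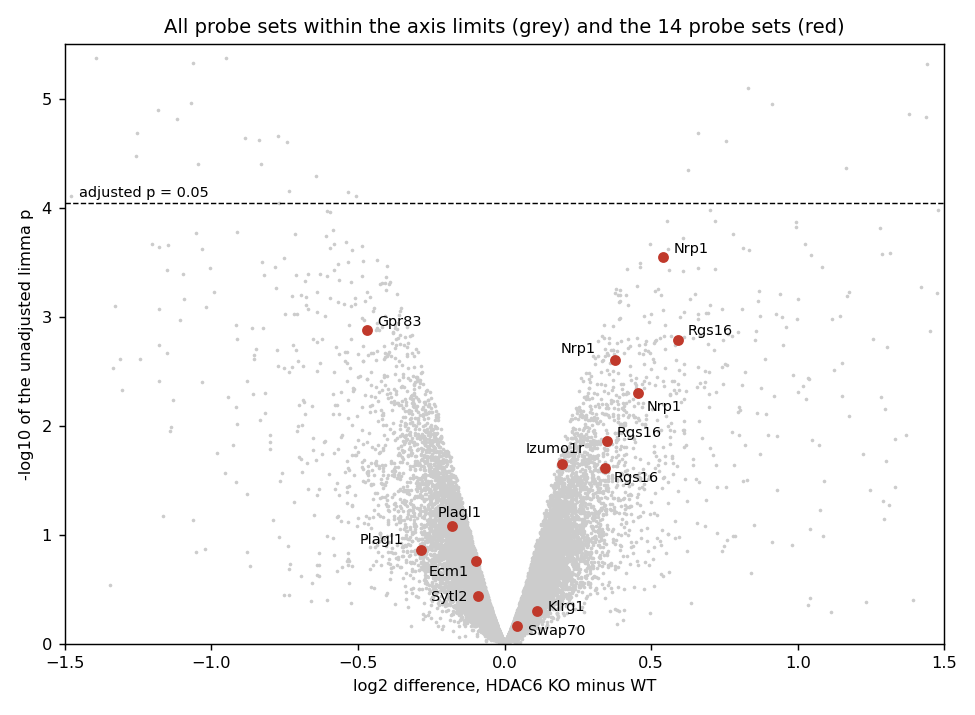
Log2 difference, HDAC6 knockout minus wild type (horizontal), against -log10 of the unadjusted limma p (vertical) for all probe sets within the axis limits (grey) and the 14 member probe sets (red, named). The dashed line marks the largest p that passed the adjusted threshold, and all 14 lie below it, with Nrp1 1418084_at nearest.

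Leaving out each array in turn kept the sign of 12 of the 14 differences, all but Klrg1 and Swap70. Nrp1 1418084_at ranged from 0.47 without wild type replicate 1 to 0.60 without wild type replicate 3, Rgs16 1426037_a_at from 0.47 to 0.70 without the same arrays, and Gpr83 from -0.55 without wild type replicate 2 to -0.39 without wild type replicate 3. Plagl1 1426208_x_at moved most among those that kept their sign, from -0.42 without knockout replicate 1 to -0.14 without wild type replicate 1.

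**Figure D4:**
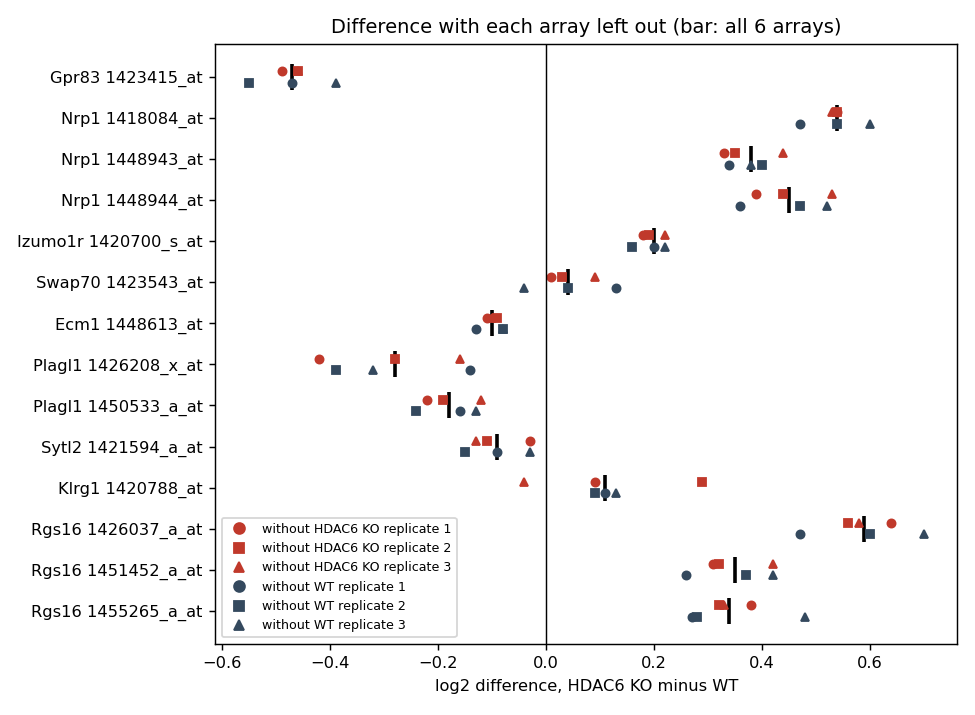
Log2 difference, HDAC6 knockout minus wild type, of each probe set with all 6 arrays (black bar) and with 1 array left out (red for a knockout array, dark blue for a wild-type array, marker shape for the replicate). The values of Nrp1, Rgs16, Izumo1r and Gpr83 stay to 1 side of 0, and those of Klrg1 and Swap70 cross it.

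Around the members, 10 lists of partners, ligands and relatives held 136 genes, of which 113 were measured. By limma on 1 probe set a gene 0 passed the threshold, which 0.169% of all genes passed, and the smallest adjusted p was 0.131. At an unadjusted p under 0.05 there were 13 genes (11.5%, beside 11.2% of all genes), and 18 did not overlap between genotypes (15.9%, beside 18.6%, of which 8.28% were higher and 10.3% lower). With trend and robust settings 0 of their 209 probe sets passed. Of the 113, 59 were higher and 54 lower, with a median of 0.01 beside 0.00 over all genes, so these shares were near the background.

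Among 19 neuropilin, plexin and semaphorin genes, 11 were higher and 8 lower (median 0.04). Sema7a, a membrane-bound semaphorin, differed by 0.31 (SE 0.08) and Plxna3, a plexin that pairs with neuropilins, by -0.20 (SE 0.07). Sema4a, a ligand of Nrp1 on mouse Treg that is named here after its values were seen, differed by -0.38 (SE 0.10) at its dimmer probe set, without overlap, and by -0.24 (SE 0.19) at its brighter one, with overlap. The adjusted p-values were 0.237 and 0.716 by limma.

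In the RGS family, 7 of 14 measured genes other than Rgs16 were higher and 7 lower (median 0.01), and 5 of the 14 lay below the arrays' lower quartiles. Rgs19 differed by -0.19 (SE 0.07) and Rgs14 by -0.15 (SE 0.07), both without overlap and opposite in sign to Rgs16, with limma's adjusted p = 0.42 and 0.491. They were the 2 of the 14 without overlap, where 18.6% of all genes did not overlap (10.3% lower). Of 7 lymphocyte egress genes set beside Ecm1, 6 were lower and 1 higher (median -0.06), and 3 were lower without overlap, where 10.3% of all genes were. S1pr1, the sphingosine phosphate receptor for exit from lymph nodes, averaged 8.82 ± 0.11 in knockout and 9.45 ± 0.27 in wild type (SD, n = 3 each; limma's adjusted p = 0.17), and the lymph node homing receptor Ccr7 differed by -0.23 (SE 0.09).

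The IL-33 receptor pathway was measured without Il1rl1 itself. Of 13 genes 5 were higher and 8 lower (median -0.06). Il1r2, the decoy receptor for interleukin-1, read 0.87 higher without overlap (SE 0.29, limma's adjusted p = 0.349), with an SD of 0.63 in knockout and 0.12 in wild type (n = 3 each), and Il18r1, the interleukin-18 receptor chain, differed by -0.22 (SE 0.10). Il1rap, the chain that pairs with Il1rl1 and is named after its values were seen, averaged 6.12 ± 0.18 in knockout and 6.16 ± 0.13 in wild type at its brightest probe set (SD, n = 3 each).

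For Klrg1, 7 of 11 ligand and lectin-like receptor genes were higher and 4 lower (median 0.10). Ptpn11, a phosphatase recruited by inhibitory receptors, differed by 0.34 (SE 0.07, limma's adjusted p = 0.157), and 6 of the 11 lay below the lower quartiles. Among those 6 was the cadherin Cdh4, at 3.95 ± 0.13 in knockout and 3.64 ± 0.14 in wild type (SD, n = 3 each). For Plagl1, 12 of 15 relatives and imprinted genes were higher and 3 lower (median 0.07), with the growth factor Igf2 at -0.51 (SE 0.13) and the relative Plagl2 at 0.23 (SE 0.08). For Sytl2, 3 of 9 vesicle secretion genes were higher and 6 lower (median -0.10), with the syntaxin Stx7 and Rab27a both at -0.20. For Swap70, 7 of 14 RAC pathway genes were higher and 7 lower (median 0.01), with Elmo1 at 0.16 and Arhgdib at -0.08. For Izumo1r, 3 of 6 folate genes were higher and 3 lower (median -0.02), with Folr1 at 0.22 and Fpgs at -0.15. For Gpr83, 3 of 5 peptide and receptor genes were higher and 2 lower (median 0.00), with Pcsk1n, the precursor of peptides that bind GPR83, at 0.16 (SE 0.20). Below the lower quartiles lay 5 of the 15 genes listed for Plagl1, 3 of the 9 for Sytl2 and 2 of the 5 for Gpr83.

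**Figure D5:**
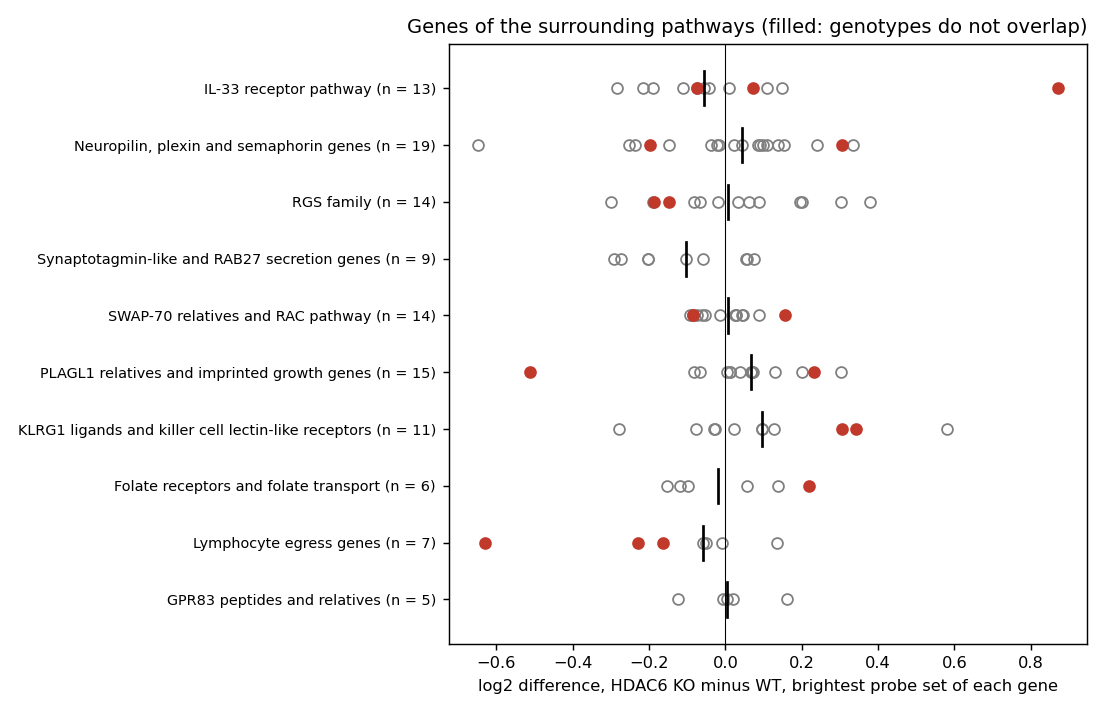
Log2 difference, HDAC6 knockout minus wild type, of the brightest probe set of each measured gene in the 10 lists around the members (1 point a gene, red where the genotypes did not overlap, black bar for the list's median). List medians lie between -0.10 and 0.10, and most points lie within 0.4 of 0.

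Genes with the most similar pattern over the 6 arrays were listed for the 5 members whose brightest probe set did not overlap between genotypes, out of 7130 other genes with a mean of at least 6. Pearson's r is given as a description, since all points share the genotype split. For Nrp1 they were Gimap7 (r = 0.993) and the HSP40 gene Dnajb4 (0.991), for Rgs16 the NF-κB regulator Bcl3 (0.998) and Lpxn (0.989), and for Izumo1r Fam207a (0.995) and Sinhcaf (0.994). For Gpr83 they were Trmt10a (0.994) and the Toll-like receptor inhibitor Tollip (0.993), and for Ecm1 Rab24 (0.998) and 0610012G03Rik (0.990). Between 28 and 57 genes had an r above 0.95 to each of these members.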

How the data were processed

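The authors deposited 1 table of log2 values for 6 arrays, made with RMA per the submitters' processing notes, with no version or settings given. RMA as usually run corrects background, quantile-normalizes and summarizes probes. The scale was read from the values, 2.09 to 14.51, and the table held 22690 probe sets with 0 missing values. RMA compresses differences of dim and near-saturated probe sets, and the number of arrays limits the precision (median SE 0.10). The 64 control probe sets were left out. Names came from the platform annotation, updated through gene IDs found for 20364 probe sets in the RefSeq table (GRCm38.p6). A single symbol was found for 20380 tested probe sets, several for 691 and none for 1555.

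Knockout and wild type were compared over all 22626 probe sets with limma 3.58.1 in R 4.3.3 (lmFit, eBayes, genotype as the only term, two-sided, Benjamini-Hochberg). The members, lists and settings were chosen with earlier results of these data known. Named genes were all members, Hdac6, Foxp3, Il2ra and Ctla4, up to 2 genes of each list by smallest p, and for each member without overlap the 2 most similar genes. Sema4a and Il1rap were added after their values were seen. In lists, the brightest probe set, with the highest mean, stood for a gene. The fit was repeated with trend and robust settings, without moderation, with array weights, with a replicate block, after median centring or a further quantile normalization, with 2 filters on dim probe sets (a mean of at least 6, the upper 60%), with 1 probe set a gene, with a threshold of 0.1 and without each array in turn. On simulated data for this comparison (22626 probe sets) the fit recovered 36.7% of log2 changes of 0.5, 86.9% of 1 and 99.1% of 2, and 5.96% of its calls were false. The planted changes were spread evenly over these sizes, and more probe sets passed in each simulated run than in the real fit. That made the adjusted threshold easier to pass, so these shares can be too high for the real arrays. Plots and tables used Python 3.11.15 and matplotlib 3.10.9.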

Additional observations from a re-analysis of the deposited data

How the results depend on the processing

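Of 203 values of the 14 probe sets under the alternatives, 197 kept their sign and stayed short of the threshold, 4 kept their sign and passed it, and 2 turned, Klrg1 to -0.04 without knockout replicate 3 (0.29 without knockout replicate 2) and Swap70 to -0.04 without wild type replicate 3 (0.13 without wild type replicate 1). With trend and robust settings 2 of the 14 passed, Nrp1 1418084_at (limma's adjusted p = 0.0134) and Gpr83 (0.0385), and over all alternatives these ran up to 0.276 and 0.386. Nrp1 1418084_at was the 1 probe set that passed with array weights (0.0488), with the filter at a mean of at least 6 (0.0452) and at the threshold of 0.1. The causes were not tested. Over the whole array 44 probe sets passed, against 27 with the replicate block, 147 with trend and robust settings, 0 unmoderated (2239 at an unadjusted p under 0.05, and 8 of the 14), 86 with array weights, 121 at the threshold of 0.1 and 21 with 1 probe set a gene, which tests fewer features. Leaving out an array gave 5 (knockout replicate 2), 11 (wild type replicate 2), 20 (knockout replicate 1) and up to 51 (wild type replicate 3), and 0 of the 14 in every case. Genotypes did not overlap for 8 of the 14 as reported, for 5 of 9 with 1 probe set a gene (18.6% of all genes) and for 8 to 11 of 14 with an array left out, where 25.3% to 30.9% of all probe sets did not overlap. The replicate block, in which 0 of the 14 passed, rests on a shared number only: deviations of same-numbered arrays correlated at 0.22, -0.09 and 0.10, and only replicate 1 of the knockout correlated best with its own number. A change of 0.5 was recovered in 36.7% of simulated cases, in runs where more probe sets passed than in the real fit. Most differences here were of that size or less, so a missed threshold does not show equal levels.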
